A study of Monodelphis domestica with 2 samples.

Results

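Projection neuron transcription factors are the DNA-binding proteins by which cortical glutamatergic neurons of different layers and targets are usually told apart. The set described here holds 9 of them, RORB, CUX2, ETV1, FEZF2, TBR1, FOXP1, NEUROD6, TSHZ2 and FOXO1, taken by their symbols from the gene list of the count matrices. All 9 were found among 30800 genes, of which 11590 carry a symbol. Their identifiers in the files are ENSMODG00000002046 for RORB, ENSMODG00000012254 for CUX2, ENSMODG00000014261 for ETV1, ENSMODG00000002738 for FEZF2, ENSMODG00000005353 for TBR1, ENSMODG00000003884 for FOXP1, ENSMODG00000013299 for NEUROD6, ENSMODG00000016391 for TSHZ2 and ENSMODG00000010342 for FOXO1.

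The study profiled single nuclei from primary visual cortex (V1) in a marsupial, Monodelphis domestica (gray short-tailed opossum), to compare its cortical cell types with those of mice, a placental mammal. The nuclei came from 2 adult males of 1.5 and 2 years, with no treatment and no genetic change, and V1 of both hemispheres was frozen together for each animal and kept in liquid nitrogen for about a year. Each animal gave 1 nuclear suspension, sorted for the DNA dye Draq5 and loaded as 2 libraries of the 10x Chromium 3′ v3 assay, so that the 2 libraries of an animal were counted as 1 replicate. A different experimenter handled each animal, so animal, age and experimenter cannot be told apart.

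In the developing and adult cortex, combinations of such factors specify and maintain neurons that project within the cortex (intratelencephalic, IT), out of it to the brainstem and spinal cord (pyramidal tract, PT), to the thalamus (corticothalamic, CT) or only nearby (near-projecting, NP). In rodents, RORB and CUX2 are known from the layers that receive thalamic input and the layers above, ETV1 and FEZF2 from deep layers that send axons out of the cortex, and TBR1 from corticothalamic cells. Several of the factors repress one another during development, which is why they are often read as alternatives rather than as partners within a cell.

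The matrices held 36558 barcodes, of which 32764 carried the deposited cell labels used here, 7055 to 9664 in each library with a median of 5834 to 7040 unique molecular identifiers (UMIs) per nucleus. Any pair of libraries shared 13 to 26 labelled barcodes, at most 0.328% of the smaller library. Labels divide the nuclei into 18 subclasses: 8 glutamatergic ones (IT_A, IT_B, IT_C, IT_D, L5PT, L5NP, L6CT and L6b), 5 GABAergic ones and 5 non-neuronal ones. Of 28 marker genes with a symbol, 25 were highest in a subclass of their own label in both animals. The exceptions were FREM1, highest in Lamp5 nuclei, BCL11B, highest in L5NP nuclei of animal 1, and CCN2, the single L6b marker that could be looked up, which was highest in microglia and at 1.82 and 0 CPM (defined below) in L6b nuclei. The label L6b therefore was not checked by a marker of its own, and it rests on 56 and 53 nuclei. IT_D held 58 nuclei in animal 1 and 315 in animal 2. The summed level of 3 GABAergic markers was 5.95 to 16.3 CPM in glutamatergic subclasses against 613 to 1787 CPM in GABAergic ones, and that of 2 glutamatergic markers was 1095 to 1835 CPM in glutamatergic subclasses and 33.3 to 190 CPM elsewhere, except in Lamp5 nuclei (445 and 417 CPM). The part of such transcripts in the levels below was not tested.

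Levels are CPM: the UMIs of a gene summed over the nuclei of a subclass in an animal, divided by all UMIs of those nuclei and scaled to counts per 1000000. They compare subclasses for 1 gene and are not comparable between genes, since gene lengths were not used. Subclasses were compared by edgeR's quasi-likelihood test on the sums, with Benjamini-Hochberg adjustment over all genes tested at 0.05. These p-values count only the spread between 2 animals. They do not count that the subclasses were built by clustering the same expression values, nor that the subclasses were named by known marker genes, which may include some of the 9. The levels are therefore given mainly as a description.

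All 9 factors differed across the 8 glutamatergic subclasses, where 35.1% of 17871 genes did. Over the 28 pairs of subclasses, 131 of 252 tests of the 9 factors passed (52.0%), against 13.3% of all gene and pair combinations. The factors fell into those concentrated in a few subclasses (RORB, CUX2, ETV1 and FEZF2), those with graded levels over most or all glutamatergic subclasses (TBR1, FOXP1 and NEUROD6), and those near the bottom of the measurable range in glutamatergic nuclei (TSHZ2 and FOXO1). The ratio of the highest to the lowest subclass mean was 28.6 for RORB, 40.9 for CUX2, 64.1 for ETV1 and 21.4 for FEZF2, but 4.09 for TBR1 and 5.33 for FOXP1. The lowest ETV1 mean is that of IT_D, from 0 UMIs in animal 1 and 23 in animal 2, so its ratio is loose. Sums of an animal pair across subclasses, and with the animal as a block 157 of the 252 tests passed, where 21.1% of all combinations did. All 131 calls were kept and 26 added, 9 of them for CUX2 and 5 for NEUROD6.

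**Figure D1:**
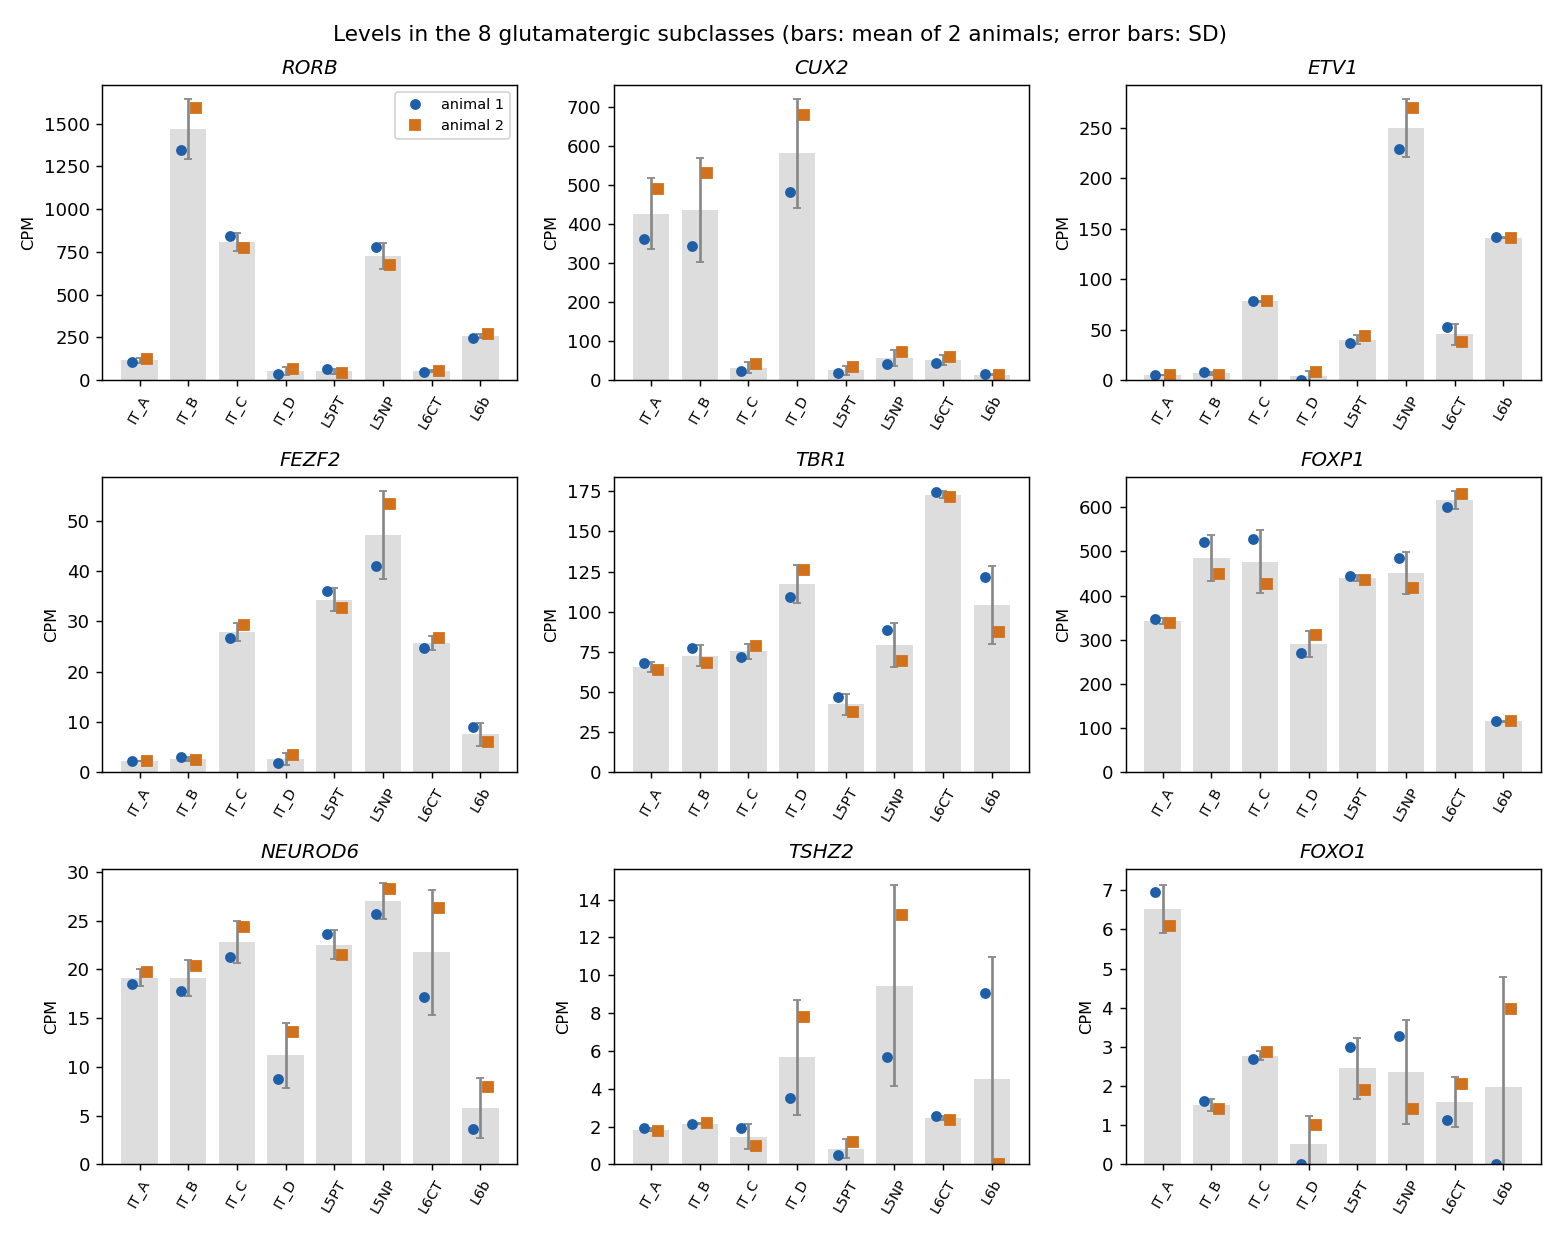
Level of each factor (vertical axes, CPM, a separate linear scale for each gene) in the 8 glutamatergic subclasses, with points for the 2 animals, bars for their mean and error bars for the SD. RORB stands highest in IT_B (1468 CPM), CUX2 in IT_D (581 CPM), ETV1 and FEZF2 in L5NP (250 and 47.1 CPM), and TBR1 and FOXP1 in L6CT (173 and 616 CPM).

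RORB, a retinoid-related orphan nuclear receptor known from layer 4 of sensory cortex, was highest in IT_B nuclei, at 1344 CPM in animal 1 and 1593 CPM in animal 2 (1468 ± 175, SD, n = 2). IT_C followed with 844 and 772 CPM and L5NP with 779 and 674 CPM. IT_B stood above both in both animals, while the values of IT_C and L5NP overlapped. IT_B exceeded IT_C by a log2 fold change of 0.96 (SE 0.21, adjusted p = 0.0078), whereas IT_C and L5NP did not differ beyond their spread (log2 0.28, SE 0.21, adjusted p = 0.491).

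Below these came L6b at 249 and 268 CPM, then IT_A, the most numerous subclass, at 105 and 124 CPM. The steps from L5NP to L6b (log2 1.50, SE 0.24, adjusted p = 0.000772), from L6b to IT_A (1.00, SE 0.23, adjusted p = 0.00877) and from IT_A to L6CT (1.18, SE 0.22, adjusted p = 0.000908) all passed. The lowest subclasses were L6CT (49.4 and 55.1 CPM), L5PT (62.9 and 41.4 CPM) and IT_D (35.2 and 67.5 CPM), which overlapped and did not differ beyond their spread. RORB thus separated 24 of the 28 pairs, with and without the animal as a block.

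At equal depth the order of the 5 highest subclasses was the same. With every nucleus thinned to 3000 UMIs, 95.5 ± 2.23% of IT_B nuclei had a RORB UMI, against 75.3 ± 5.12% in IT_C, 71.9 ± 1.56% in L5NP, 46.9 ± 3.38% in L6b and 19.2 ± 0.98% in IT_A. Unthinned, 842 of 851 IT_B nuclei of animal 1 (98.9%, 95% Clopper-Pearson interval 98.0 to 99.5%) and 868 of 875 of animal 2 (99.2%, interval 98.4 to 99.7%) had a UMI. Such intervals cover counting error only. As a reading of free RNA the share was taken in oligodendrocytes, whose median depth is 1917 UMIs against 8115 and 8055 in glutamatergic nuclei of the 2 animals: at 1000 UMIs a nucleus 2.86% of them had a RORB UMI, against 4.08 to 4.3% in IT_D, L5PT and L6CT and 72.5% in IT_B. The 5 GABAergic subclasses were at 1.26 to 1.80% at the same depth, below the oligodendrocytes and below all glutamatergic subclasses.

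Outside glutamatergic neurons RORB was at 11.4 to 19.3 CPM in the 5 GABAergic subclasses of both animals. Astrocytes carried 538 and 444 CPM, between the L6b and the L5NP levels, and oligodendrocyte precursors 79.2 and 75.9 CPM. The astrocyte defining markers AQP4, ALDH1L1 and SLC1A3 were each highest in these nuclei, the 2 glutamatergic markers summed to 65.0 and 107 CPM there, and 35.6% of astrocyte nuclei had a RORB UMI at 1000 UMIs a nucleus, against 2.86% of oligodendrocytes.

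CUX2, a cut-like homeodomain protein of upper-layer neurons, split the glutamatergic subclasses into 2 groups. IT_D (482 and 679 CPM), IT_B (343 and 531 CPM) and IT_A (362 and 490 CPM) formed the high group. The low group ran from L5NP (42.5 and 72.2 CPM) and L6CT (43.0 and 60.3 CPM) through IT_C (22.2 and 41.6 CPM) and L5PT (17.1 and 33.9 CPM) to L6b (14.5 and 13.9 CPM). No value of the low group reached a value of the high one.

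The step between the groups, from IT_A to L5NP, was a log2 fold change of 3.08 (SE 0.41, adjusted p = 5.23e-05). The 15 called pairs were those between a subclass of the high group and one of the low group. With the animal as a block 24 pairs passed, which included IT_D over IT_B (adjusted p = 0.0233) within the high group, and L6CT (adjusted p = 5.04e-05) and IT_C (log2 1.27, adjusted p = 0.00874) over L6b within the low one. IT_C, which carried much RORB, thus held little CUX2, and IT_D, which carried little RORB, held the most. At 3000 UMIs a nucleus, 70.2 ± 6.34% of IT_D, 67.7 ± 10.2% of IT_B and 63.0 ± 6.15% of IT_A nuclei had a CUX2 UMI, against 6.75 ± 3.83% of IT_C nuclei. At 1000 UMIs the share was 2.60% in IT_C, 2.20% in L5PT and 1.35% in L6b, beside 2.56% in oligodendrocytes. L6b lay below the oligodendrocytes, so these give no background for this gene.

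CUX2 was the factor that differed most steadily between the animals. It was higher in animal 2 in 7 of 8 glutamatergic subclasses, and in all 7 both libraries of animal 2 stood above both libraries of animal 1. In IT_A the ratio of animal 2 to animal 1 was 1.35, above the 95th percentile (1.23) of 5997 genes with at least 20 CPM there. The mix of types enters that ratio: IT_A_1, the type with the most CUX2, held 981 of 4301 IT_A nuclei in animal 1 and 2465 of 5563 in animal 2. Within each of the 5 IT_A types animal 2 was higher too, but by less, from 528 and 576 CPM in IT_A_1 to 341 and 447 CPM in IT_A_3. With 1 animal on each side no test of this is possible, and age, experimenter and animal cannot be told apart. NEUROD6 was also higher in animal 2 in 7 of 8 subclasses, in 6 of them for both libraries.

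CUX2 was not restricted to glutamatergic neurons. Sst interneurons carried 522 and 583 CPM, a level within the range of the high glutamatergic group, Pvalb interneurons 163 and 169 CPM, Frem1 interneurons 99.9 and 151 CPM and oligodendrocyte precursors 239 and 243 CPM. Over all glutamatergic against all GABAergic nuclei CUX2 did not differ beyond the spread between animals (log2 0.46, SE 0.22, adjusted p = 0.157).

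ETV1, an ETS-family factor known from layer 5, had the widest range. It was highest in L5NP (230 and 270 CPM), followed by L6b (142 and 141 CPM) and IT_C (78.0 and 77.9 CPM). L6CT (52.7 and 38.2 CPM) and L5PT (36.9 and 43.5 CPM) came next and overlapped. The first steps, L5NP over L6b (log2 0.83, SE 0.25, adjusted p = 0.0673) and L6b over IT_C (0.72, SE 0.25, adjusted p = 0.0945), did not pass, although neither pair of subclasses overlapped. L5NP over L6b passed without the low-count filter (adjusted p = 0.00303), with the animal as a block (0.00601) and with DESeq2 (0.0267), and L6b over IT_C likewise (0.0114, 0.0185 and 0.00951), so both calls depend on the procedure. The step from IT_C to L6CT passed (0.79, SE 0.22, adjusted p = 0.0252) but not with 53 nuclei a subclass and animal (adjusted p = 0.0598).

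A far larger step lay between L5PT and IT_B (log2 2.57, SE 0.27, adjusted p = 6.73e-06). IT_B (7.78 and 5.39 CPM), IT_A (5.19 and 4.89 CPM) and IT_D (0 and 7.80 CPM) formed the bottom and did not differ beyond their spread. In IT_D of animal 1, 0 of 58 nuclei had an ETV1 UMI, which allows a share of up to 5.17%. At 1000 UMIs a nucleus the share was 23.8 ± 3.59% in L5NP, 13.5 ± 0.38% in L6b and 7.47 ± 0.06% in IT_C. It was 0.473% in IT_A, 0.617% in IT_B and 0.350% in IT_D beside 0.292% in oligodendrocytes. ETV1 thus set IT_C apart from the other IT subclasses, in the opposite direction to CUX2.

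Pvalb interneurons also carried ETV1, at 35.2 and 42.3 CPM, as did oligodendrocyte precursors (88.2 and 66.6 CPM) and astrocytes (74.7 and 78.5 CPM). Over whole classes it differed neither from GABAergic (log2 0.39, SE 0.16, adjusted p = 0.0965) nor from non-neuronal nuclei (-0.23, SE 0.16, adjusted p = 0.236) beyond the spread between animals.

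FEZF2, a zinc finger repressor needed for subcerebral projection neurons, was highest in 4 glutamatergic subclasses. L5NP carried 41.0 and 53.3 CPM, L5PT 35.9 and 32.7 CPM, IT_C 26.6 and 29.2 CPM and L6CT 24.7 and 26.7 CPM. No step within these 4 passed, except that L5PT over IT_C did with the animal as a block (adjusted p = 0.0443), though over the full set of pairs L5NP exceeded L6CT (log2 0.74, SE 0.17, adjusted p = 0.0123) and IT_C against L5NP gave -0.62 (SE 0.18, adjusted p = 0.0281). Neither of these calls held with 53 nuclei a subclass and animal (adjusted p = 0.472 and 0.398), and the second was also lost without the low-count filter (adjusted p = 0.0772). L6CT stood above L6b (9.08 and 5.95 CPM) by a log2 fold change of 1.89 (SE 0.34, adjusted p = 0.00295), a step that rests on 5 and 3 UMIs in L6b, still above the subclasses that follow, and lost its call when each subclass was reduced to 53 nuclei an animal (adjusted p = 0.149).

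IT_B (3.01 and 2.44 CPM), IT_D (1.76 and 3.39 CPM) and IT_A (2.21 and 2.19 CPM) lay in the range of GABAergic and non-neuronal subclasses, 0 to 4.61 CPM. At 1000 UMIs a nucleus 0.215% of IT_A and 0.231% of IT_B nuclei had a FEZF2 UMI beside 0.186% of oligodendrocytes. IT_D rested on 1 and 10 UMIs. The shares were 5.38 ± 1.2% in L5NP, 4.01 ± 0.03% in L5PT, 2.94 ± 0.24% in IT_C and 2.75 ± 0.07% in L6CT. Among the 4 IT subclasses IT_C alone thus reached the FEZF2 levels of the subclasses named for projections out of the cortex, and its difference from L5PT (log2 -0.35, SE 0.17, adjusted p = 0.259) passed only with the block named above.

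TBR1, a T-box factor of early-born and corticothalamic neurons, was present in every glutamatergic subclass. It was highest in L6CT (174 and 171 CPM), then IT_D (109 and 126 CPM) and L6b (122 and 87.3 CPM). L6CT stood above every other subclass in both animals, but the step to IT_D missed the threshold (log2 0.49, SE 0.16, adjusted p = 0.0514). That step passed without the low-count filter (adjusted p = 0.0197), with the animal as a block (0.0121) and without doublets (0.0402).

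L5NP, IT_C, IT_B and IT_A lay between 63.5 and 88.8 CPM, and no step among them passed. L5PT was lowest, at 46.9 and 37.7 CPM, below IT_A by a log2 fold change that passed (0.61, SE 0.15, adjusted p = 0.0127). Even there 4.05% of nuclei had a TBR1 UMI at 1000 UMIs, against 0.987% of oligodendrocytes and 16.1 ± 0.05% of L6CT nuclei. In GABAergic nuclei TBR1 was at 0 to 9.51 CPM, and in non-neuronal nuclei at 0 to 12.4 CPM.

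FOXP1, a forkhead factor of cortical and striatal projection neurons, was also graded. L6CT was highest with 601 and 630 CPM, above every value of the other subclasses, and IT_B (522 and 448 CPM), IT_C (527 and 427 CPM), L5NP (485 and 417 CPM) and L5PT (444 and 435 CPM) overlapped below it. The step from L6CT to IT_B did not pass (log2 0.24, SE 0.12, adjusted p = 0.225), nor did any step down to IT_D. L5PT over IT_A was the closest (log2 0.39, SE 0.12, adjusted p = 0.0546), and it passed in 5 of the 7 other fits, the block included (adjusted p = 0.00496). L6b was set apart at the bottom with 116 and 115 CPM, below IT_D (269 and 311 CPM) by a log2 fold change that passed (1.51, SE 0.16, adjusted p = 8.38e-06). At 3000 UMIs a nucleus 77.7 ± 1.05% of L6CT and 23.8 ± 1.69% of L6b nuclei had a FOXP1 UMI. At 1000 UMIs the L6b share was 9.48 ± 0.05%, above the 2.70% of Pvalb nuclei (median depth 7115.5 UMIs), while oligodendrocytes, at 20.9%, carry the gene and give no background.

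Outside these neurons FOXP1 was low in the 5 GABAergic subclasses (21.4 to 87.6 CPM). It was highest of all in the endothelial nuclei, at 2144 and 1780 CPM from 104 and 103 UMIs in 29 and 36 nuclei, and it reached 456 and 402 CPM in microglia.

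NEUROD6, a basic helix-loop-helix factor of pallial glutamatergic neurons in general, differed little among them. L5NP was highest (25.7 and 28.3 CPM) and 6 subclasses, L5NP among them, lay between 17.2 and 28.3 CPM in both animals. IT_D (8.80 and 13.6 CPM) and L6b (3.63 and 7.93 CPM, from 2 and 4 UMIs) were lower. No neighbouring step passed without the block, with which IT_B over IT_D did (adjusted p = 0.0461). The 6 called pairs all set L6b below another subclass, the 5 that the block added set IT_D below one, and the difference across the 8 subclasses (adjusted p = 0.0256) was lost with 53 nuclei a subclass and animal (adjusted p = 0.221). At 1000 UMIs a nucleus 3.06 ± 0.71% of L5NP nuclei had a UMI, and 0.612% of L6b nuclei did beside 0.445% of oligodendrocytes.

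TSHZ2, a teashirt zinc finger known from near-projecting neurons in mice, was sparse in these counts. The paper reports many opossum genes without annotated untranslated ends, and whether this enters the TSHZ2 level was not tested. L5NP was highest on average, yet at only 5.68 and 13.2 CPM, from 19 and 28 UMIs, with animal 2 at 2.32 times animal 1. IT_D carried 3.52 and 7.80 CPM and L6b 9.08 and 0 CPM. In animal 1 alone L6b ranked above L5NP, on 5 UMIs, and in animal 2, 0 of 53 L6b nuclei had a UMI, which allows a share of up to 5.66%. IT_A against L5NP gave a log2 fold change of -2.14 (SE 0.51, adjusted p = 0.00624), and 7 pairs in all passed, each with L5NP or IT_D as the higher subclass.

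The share of L5NP nuclei with a TSHZ2 UMI was 4.53 ± 1.86% unthinned and 0.813 ± 0.417% at 1000 UMIs, against 0.0670% of oligodendrocytes. Levels above L5NP in both animals lay outside glutamatergic neurons, at 206 and 397 CPM in endothelial nuclei, 36.8 and 24.3 CPM in astrocytes and 11.9 and 19.9 CPM in oligodendrocyte precursors. Vip interneurons were at 22.1 and 8.91 CPM, above L5NP in animal 1 and below it in animal 2.

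FOXO1, a forkhead factor downstream of insulin signalling that has been used as a layer marker, was highest among glutamatergic subclasses in IT_A at 6.96 and 6.097 CPM. IT_C followed with 2.69 and 2.86 CPM, and no other value exceeded 3.97 CPM. IT_A stood above the other 7 subclasses in both animals. The step to IT_C passed (log2 1.25, SE 0.37, adjusted p = 0.0384) but not with labels predicted from other genes (adjusted p = 0.155), and all 6 called pairs had IT_A as the higher subclass.

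The share of IT_A nuclei with a FOXO1 UMI was 4.06 ± 0.41% unthinned and 0.621 ± 0.023% at 1000 UMIs. The other glutamatergic subclasses lay between 0.0423 and 0.277% at 1000 UMIs and Lamp5 interneurons at 0.183%. Oligodendrocytes were at 1.39%, above every glutamatergic subclass and Lamp5, so they give no background for this gene. Within IT_A, the level differed among the types. IT_A_1, with 981 and 2465 nuclei the largest over both animals, was at 2.22 and 2.50 CPM. IT_A_3 was at 4.23 and 5.76 CPM and IT_A_5 at 9.96 and 8.82 CPM. IT_A_2 (7.16 and 16.8 CPM) and IT_A_4 (10.4 and 3.95 CPM) differed in opposite ways between the animals. Levels were far higher in non-neuronal nuclei: 388 and 387 CPM in astrocytes, 372 and 313 CPM in microglia, 195 and 146 CPM in oligodendrocyte precursors, and 721 and 346 CPM in the endothelial nuclei. Among interneurons Frem1 (17.8 and 17.3 CPM) and Sst (15.5 and 17.1 CPM) were above IT_A.

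**Figure D2:**
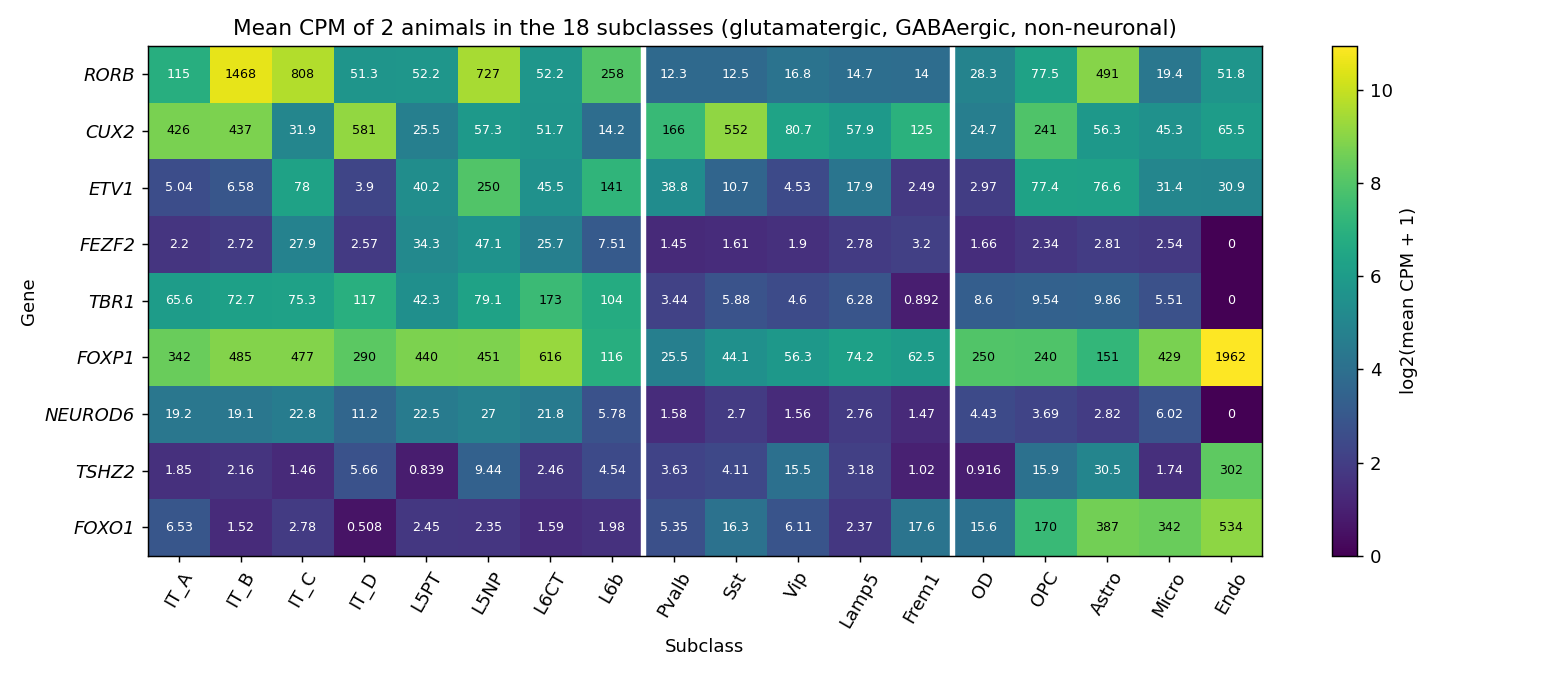
Mean level of the 9 factors (rows) in the 18 subclasses (columns, glutamatergic, GABAergic and non-neuronal from left to right), printed in CPM and coloured on a log2(CPM + 1) scale. RORB is also seen in astrocytes (491 CPM), CUX2 in Sst interneurons (552 CPM), FOXP1 in endothelial nuclei (1962 CPM) and FOXO1 in non-neuronal subclasses.

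Set against the other classes as a whole, 5 of the 9 factors were higher in glutamatergic than in GABAergic nuclei, where 17.1% of 19467 genes were. RORB was at 332 and 302 CPM against 13 and 13.2 CPM (log2 4.72, SE 0.13, adjusted p = 1.28e-06), and TBR1 at 89.2 and 83.1 CPM against 2.38 and 5.79 CPM (4.54, SE 0.33, adjusted p = 4.49e-05). FOXP1 (3.58), NEUROD6 (3.55) and FEZF2 (2.99) followed. FOXO1 and TSHZ2 were lower, by log2 changes of -0.82 (SE 0.11, adjusted p = 0.00102) and -0.91 (SE 0.29, adjusted p = 0.0487), where 15.8% of genes were. TSHZ2 lost its call with labels predicted from other genes (adjusted p = 0.0536).

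Against non-neuronal nuclei 6 factors were higher, where 30.8% of genes were: TBR1 (log2 3.47), FEZF2 (2.72), NEUROD6 (2.58), CUX2 (2.07), FOXP1 (1.02) and RORB (1.01). FOXO1 and TSHZ2 were lower, by -5.22 (SE 0.11, adjusted p = 1.30e-07) and -2.56 (SE 0.29, adjusted p = 0.000172), where 30.6% of genes were. FOXO1 was at 4.26 and 4.24 CPM in glutamatergic nuclei against 187 and 171 CPM in non-neuronal ones.

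Within subclasses, the deposited labels divide IT_A into 5 types, IT_C and L5PT into 2 each and L6CT into 4. These types come from clusters of the same nuclei and are described without a test. RORB was uneven among the IT_A types, at 178 and 203 CPM in IT_A_2 and 135 and 148 CPM in IT_A_4 but 15.3 and 31.8 CPM in IT_A_3 and 17.2 and 15.02 CPM in IT_A_5. CUX2 was present in all 5, from 233 and 280 CPM in IT_A_5 to 528 and 576 CPM in IT_A_1. The intermediate RORB level of IT_A is thus an average over types with unlike levels.

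In IT_C, RORB was at 898 and 979 CPM in IT_C_2 and 409 and 636 CPM in IT_C_1, while ETV1 (78.2 and 72.7 against 76.8 and 81.4 CPM) overlapped and FEZF2 (25.9 and 26.2 against 32.1 and 31.2 CPM) was slightly lower in IT_C_2. The L6CT types differed in ETV1, which was at 110 and 80.4 CPM in L6CT_3 but 14.3 and 10.6 CPM in L6CT_1, and unequal between animals in L6CT_2 (106 and 38.4 CPM). CUX2 was lowest in L6CT_3 (17.9 and 21.9 CPM), intermediate in L6CT_1 (48.7 and 43.6 CPM) and highest in L6CT_2 (82.6 and 89.3 CPM) and L6CT_4 (81.6 and 110 CPM), so the order of the 4 types was not simply that of ETV1 turned around. TBR1 stayed within 155 to 190 CPM in all 4 types and both animals. FEZF2 was higher in L5PT_2 (68.8 and 42.8 CPM) than in L5PT_1 (33.8 and 27.1 CPM), and FOXP1 lower (219 and 351 CPM against 459 and 481 CPM).

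**Figure D3:**
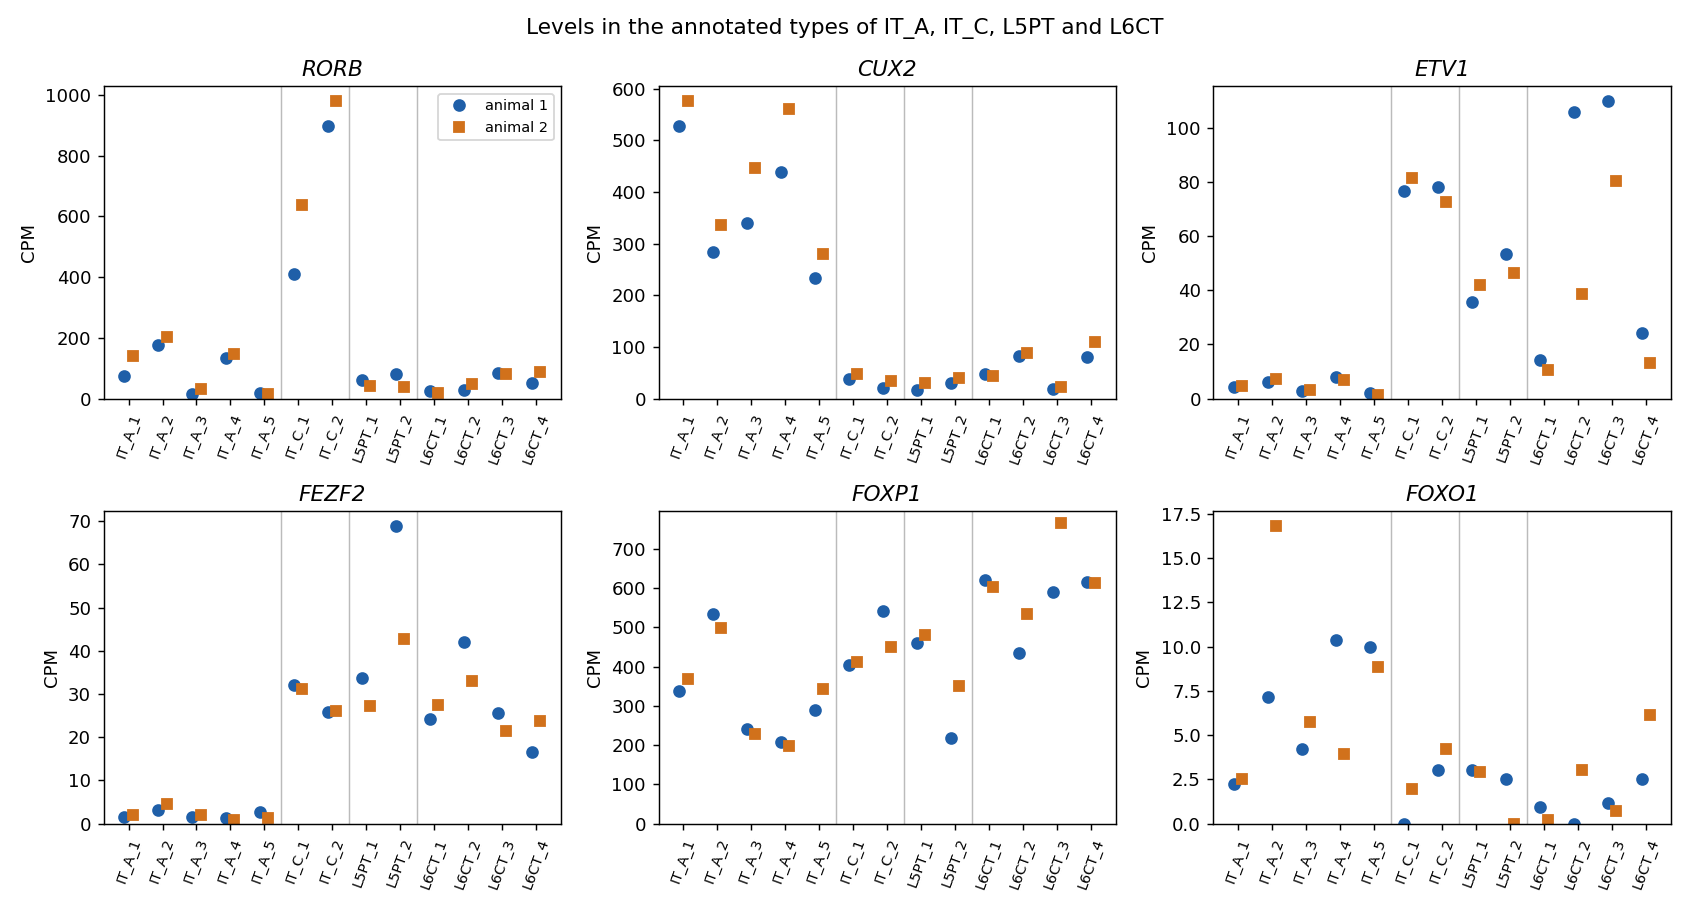
Level (vertical axes, CPM, linear) of 6 factors in the annotated types of IT_A, IT_C, L5PT and L6CT, with points for the 2 animals and thin vertical lines between subclasses. RORB is low in IT_A_3 and IT_A_5 (15.02 to 31.8 CPM), and ETV1 is high in L6CT_3 (110 and 80.4 CPM) and low in L6CT_1 (14.3 and 10.6 CPM).

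Whether factors occur in the same nuclei was asked by co-detection. Each glutamatergic nucleus was thinned to 3000 UMIs, and the share of nuclei with a UMI of both genes was divided by the product of the single shares, so that 1 stands for independence. The counts of nuclei with both given beside a ratio are those after thinning, as the number expected over all draws of 3000 UMIs, unless said otherwise. The 707 and 666 shallower nuclei were left out, leaving 8378 and 10399. Of the 36 pairs of factors, 2 had a ratio above 1.2 in both animals and 7 had one below 0.8. Nuclei are not replicates, so the ratios are given for each animal with no test.

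RORB and CUX2, the upper-layer factors, were seen together in 11.6% of thinned nuclei of animal 1 and 14.7% of animal 2, and in 2084 and 2872 nuclei before thinning. Their ratio was 0.928 and 0.989 (0.959 ± 0.0433, SD, n = 2), close to independence. Of the unthinned nuclei with both, 51.6 and 55.5% were IT_A and 35.3 and 27.8% IT_B. Before thinning, 86.5 and 91.3% of IT_B nuclei had both, and 25.02 and 28.6% of IT_A nuclei did. After thinning, the ratio in IT_B was 0.998 in each animal. It says little, since nearly every IT_B nucleus had RORB. Nuclei with both were deeper than nuclei with neither, with medians of 9508 and 9597 UMIs against 7229 and 6491.

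The pairs of the deep-layer factors lay on either side of 1. ETV1 and FEZF2 had the highest ratio, 2.49 and 2.86 (2.68 ± 0.260), and RORB and ETV1 came next with 1.62 and 1.73 (1.68 ± 0.0747). CUX2 was seldom seen with FEZF2 (0.289 and 0.279) or with ETV1 (0.279 and 0.305), the lowest ratios of the 36. FEZF2 and TBR1 were near independence at 1.154 and 1.206, a ratio that went to 0.984 when each subclass was given equal weight. FEZF2 and TSHZ2 gave 1.27 and 0.841 from only 2.57 and 2.00 nuclei with both, which shows no direction. The other 5 ratios below 0.8 in both animals all involved FOXO1 and rested on few nuclei. FOXO1 and RORB (0.723 and 0.715) were together in 23.0 and 25.4 nuclei where independence gives 31.9 and 35.5, and FOXO1 and TBR1 (0.792 and 0.798) in 17.1 and 19.4 where it gives 21.5 and 24.4. With ETV1, NEUROD6 and FEZF2 the joint counts were 2.78 to 5.44 nuclei, too few to read a direction.

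**Figure D4:**
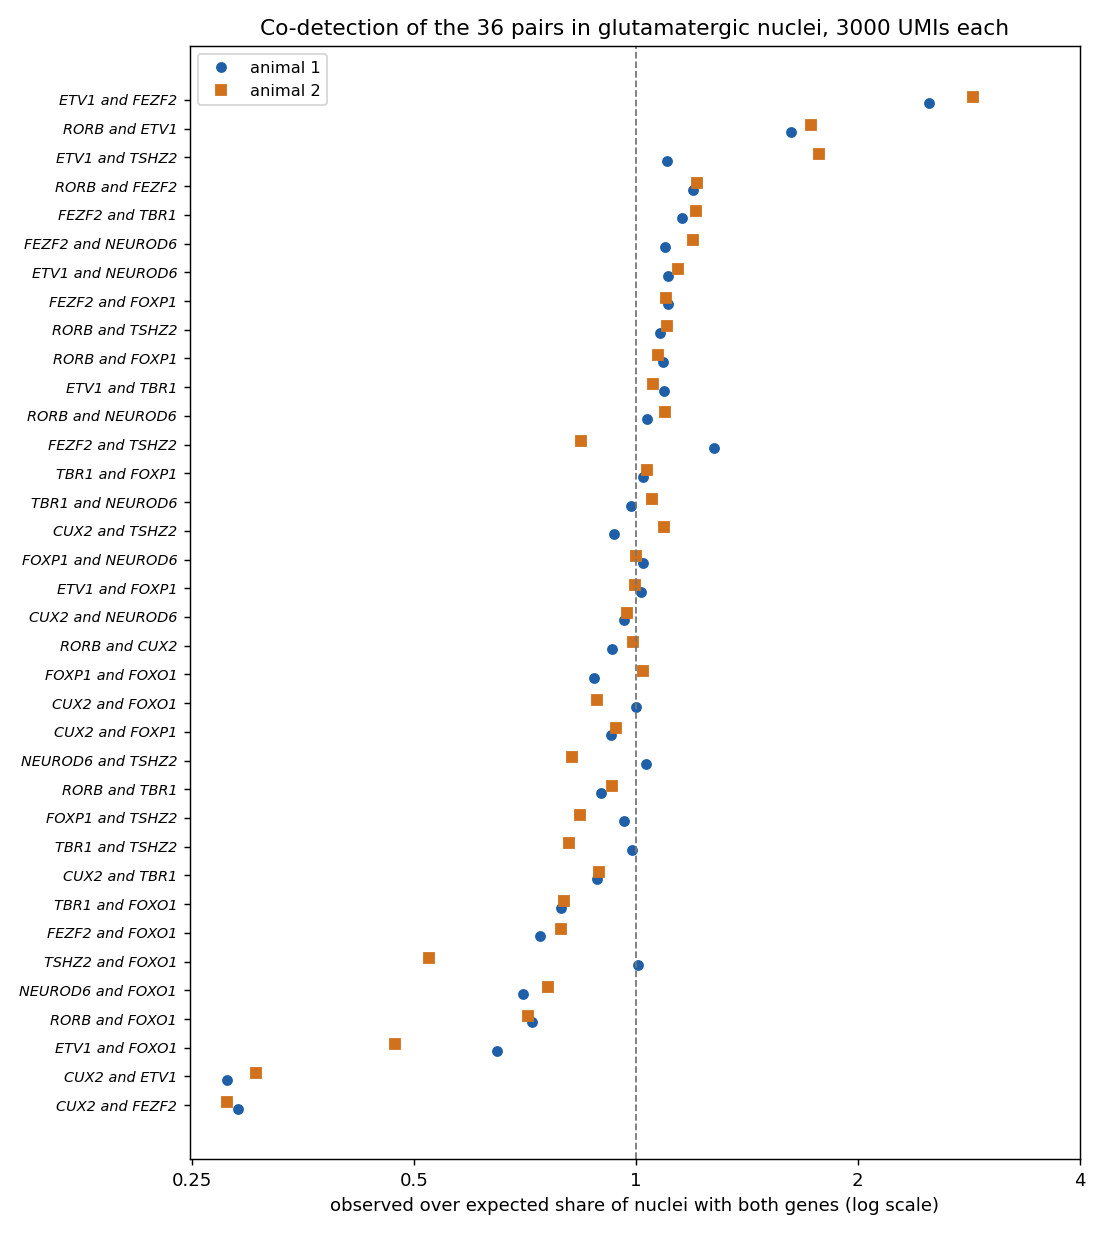
Observed over expected share of glutamatergic nuclei with a UMI of both genes (horizontal axis, log scale) for the 36 pairs of factors, each nucleus thinned to 3000 UMIs, with points for the 2 animals and a dashed line at 1. ETV1 and FEZF2 stand at the top (2.49 and 2.86), and CUX2 with FEZF2 or ETV1 at the bottom (0.279 to 0.305).

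The same ratios were then taken within subclasses, where differences in level between subclasses do not enter. Of 288 combinations of a pair and a subclass, 126 had at least 20 nuclei with both genes in each animal before thinning. The minimum on joint nuclei drops pairs seldom seen together, and a gene found in nearly every nucleus holds the ratio near 1, so the combinations kept do not measure how far the factors are independent within subclasses. CUX2 and ETV1, at 0.279 and 0.305 over all glutamatergic nuclei, gave 0.597 and 0.497 within L6CT, the lowest of the 126, from 11.5 and 9.12 nuclei with both where independence gives 19.3 and 18.3. CUX2 and FOXO1 within IT_A (0.771 and 0.708) were together in 32.2 and 40.9 nuclei where it gives 41.8 and 57.8. NEUROD6 and FOXO1 within IT_A were the other combination below 0.8 in both animals, but on 3.23 and 3.77 nuclei, too few to read a direction.

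Only 4 combinations were above 1.2 in both animals. RORB and ETV1 gave 1.68 and 1.74 in IT_A (16.1 and 24.2 nuclei with both where independence gives 9.58 and 13.9) and 1.47 and 1.37 in L6CT (31.04 and 25.5 nuclei where it gives 21.1 and 18.7). ETV1 and FEZF2 gave 1.39 and 1.40 in IT_C (20.3 and 30.5 nuclei where it gives 14.6 and 21.8). RORB and CUX2 in L5PT were the fourth, on 3.99 and 5.25 nuclei, too few to read a direction. Differences in level between the types of a subclass can still enter such ratios. Within types the joint counts were smaller still. CUX2 and ETV1 were at 0.732 and 1.02 in L6CT_3 (22 and 26 nuclei before thinning). In L6CT_4 they were at 1.19 and 0.893 (10 and 10 nuclei before thinning), so neither type showed a steady direction. RORB and ETV1 were at 1.01 and 1.02 in L6CT_3 (25.5 and 14.8 nuclei). In IT_A_4 they were at 1.25 and 1.56 (32 and 24 nuclei before thinning), and in IT_A_2 at 1.65 and 1.00 (39 and 25). Their ratios were 1.31 and 1.21 in IT_C_1 (39 and 290 before thinning) and 1.09 and 1.09 in IT_C_2 (378 and 176). ETV1 and FEZF2 were at 1.28 and 1.31 in IT_C_2 (16.3 and 7.002 nuclei). In IT_C_1 they were at 2.19 and 1.42 (12 and 78 nuclei before thinning). CUX2 and FOXO1 were at 0.587 and 0.605 in IT_A_2 (6.47 and 11.02 nuclei) but at 0.903 and 0.949 in IT_A_4 (14.1 and 6.45 nuclei), so their ratio differed among the IT_A types on few nuclei.

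**Figure D5:**
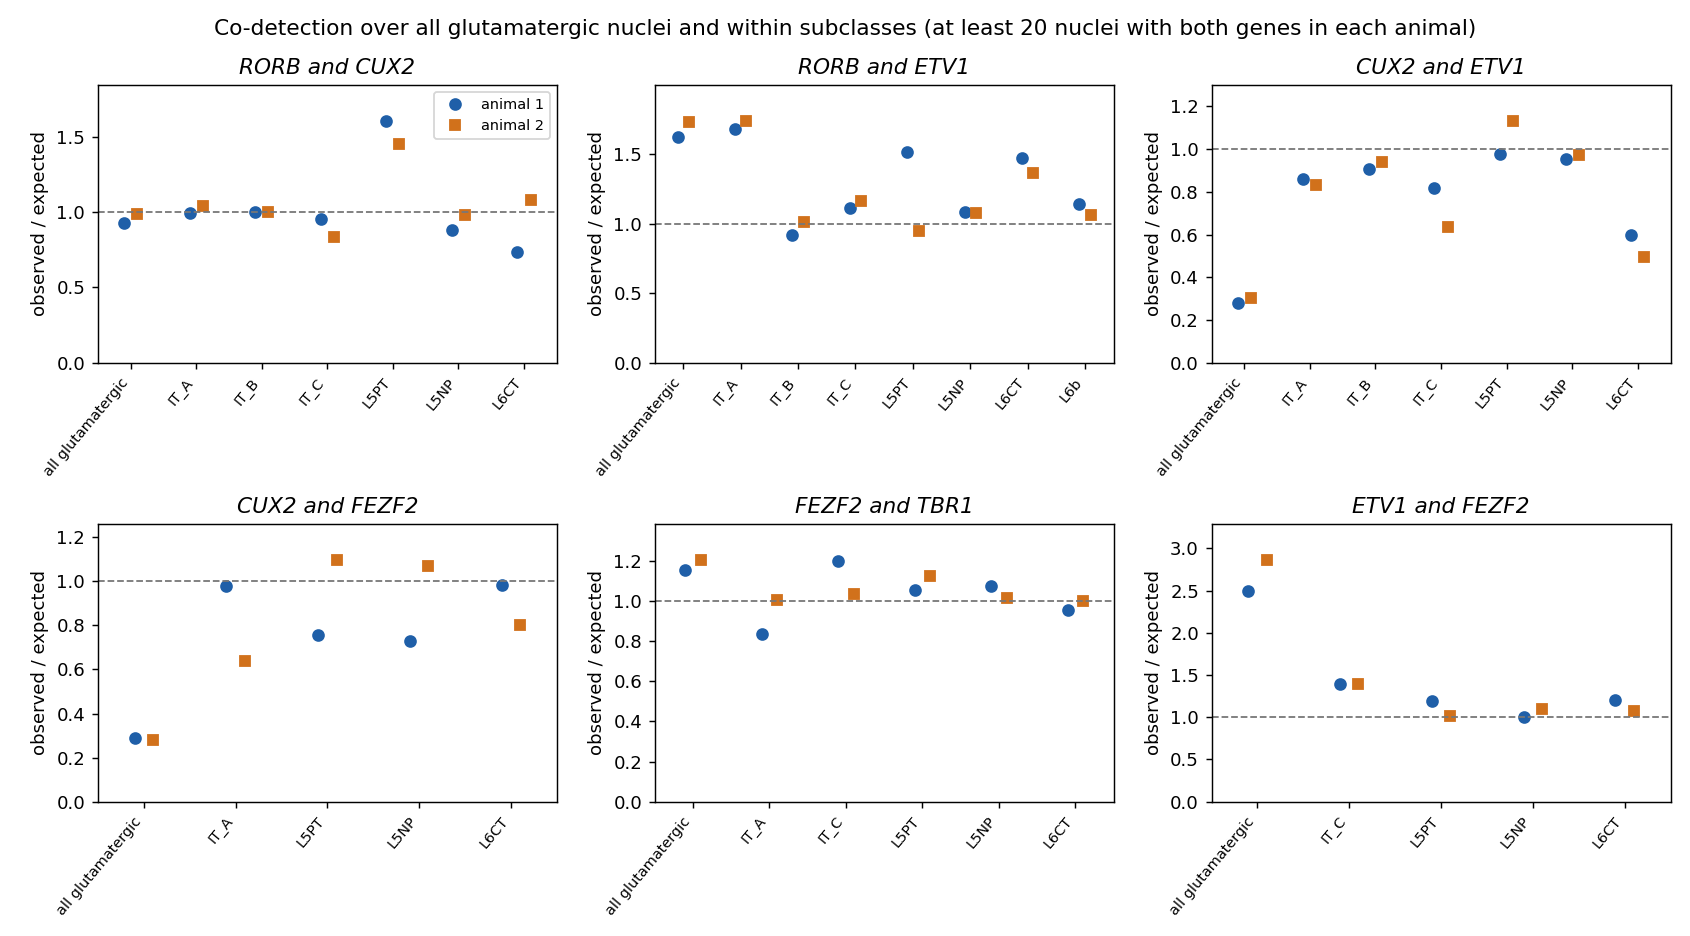
Observed over expected co-detection (vertical axes, linear) of 6 pairs over all glutamatergic nuclei and within each subclass that had at least 20 nuclei with both genes in each animal before thinning, with points for the 2 animals and a dashed line at 1. ETV1 and FEZF2 fall from 2.49 and 2.86 over all nuclei to 1.39 and 1.40 in IT_C, and CUX2 and ETV1 rise from 0.279 and 0.305 to 0.597 and 0.497 in L6CT.

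Levels of the factors were also set against each other over the 8 subclasses, as a description over 8 points that share their libraries. Pearson's r of log2(CPM + 1) was -0.87 and -0.85 between CUX2 and ETV1, -0.85 and -0.66 between CUX2 and FEZF2, 0.83 and 0.78 between ETV1 and FEZF2, and 0.92 and 0.92 between FOXP1 and NEUROD6. NEUROD6 was low only in L6b (2 and 4 UMIs) and IT_D (5 and 40 UMIs), so its r with FOXP1 rests largely on these subclasses. RORB and CUX2 had no steady relation (-0.12 and 0.06).

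Other transcription factors known from projection neurons were looked up in a list of 32, of which 30 had a symbol and 28 were tested. Of these, 27 passed across the 8 subclasses, where 35.1% of all genes did. Of their pair tests 399 of 784 passed (50.9%), against 13.3% of all gene and pair combinations. Of 29 tested against GABAergic nuclei, 21 were higher in glutamatergic nuclei and 2 lower, where 17.1% and 15.8% of all genes were. Against non-neuronal nuclei 19 were higher and 6 lower, where 30.8% and 30.6% of all genes were. The genes of the list with the most CPM in each subclass, a rule for choosing names and not a comparison between genes, were MEF2C in IT_A, IT_B and IT_C (1331 ± 98.2, 1282 ± 155 and 1553 ± 314 CPM), SOX5 in IT_D and L5PT (1485 ± 53.0 and 1345 ± 68.3 CPM), BCL11B in L5NP (1173 ± 50.4 CPM) and NFIA in L6CT and L6b (1932 ± 186 and 1849 ± 217 CPM). NR4A2, named after its values were seen, was at 157 ± 30.3 CPM in IT_D. Among glutamatergic subclasses L5NP was next, at 3.84 ± 4.58 CPM. POU3F1, a factor of pyramidal tract neurons and among the markers looked up for L5PT, was likewise named here afterwards. It was at 24.1 ± 2.68 CPM in L5PT and 11.7 ± 1.09 CPM in oligodendrocyte precursors. The next glutamatergic subclass was IT_A at 5.45 ± 1.40 CPM.

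Paralogs of the 9 factors numbered 18, of which 14 had a symbol and 13 were tested. Across the 8 subclasses 10 of them passed, where 35.1% of all genes did. Of their pair tests 146 of 364 passed (40.1%), against 13.3% of all gene and pair combinations. By the same rule RORA was taken in 7 subclasses. Ranked among glutamatergic subclasses only, RORA was highest in L5NP (1412 ± 75.5 CPM), not in IT_B (1199 ± 65.9 CPM) where RORB was. FOXP2 was taken in L6CT, its highest subclass (1546 ± 10.0 CPM). Among glutamatergic subclasses FOXP1 was also highest there. CUX1 and TSHZ3 were named after their values were seen, and are ranked here among glutamatergic subclasses only. CUX1 was highest in IT_D (246 ± 11.8 CPM), as CUX2 was. TSHZ3 was highest in L5NP (919 ± 72.2 CPM), as TSHZ2 was on average.

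The genes whose levels over all 18 subclasses were most like each factor were ranked among 7174 genes by the lower of the 2 animals' correlations. TBR1 was most like NEUROD2 (0.92), the basic helix-loop-helix relative of NEUROD6, and GPR26 (0.91), and NEUROD6 was most like the same pair, GPR26 (0.90) and NEUROD2 (0.88). FOXO1 was closest to MCC, NOTCH1 and ZBTB20 (0.92 for each), which peak in endothelial nuclei or astrocytes, and TSHZ2 to ZIC2 (0.84), which peaks in endothelial nuclei. RORB was closest to GRM3 (0.81), which is highest in astrocytes, FEZF2 to VXN (0.82), FOXP1 to STIM2 (0.80), CUX2 to GALNT14 (0.71) and ETV1 to PLPP3 (0.71). These are descriptions over 18 points that share their libraries.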

How the data were processed

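Single-nucleus libraries, 2 from each of 2 animals, were read as 10x matrices of raw UMI counts. The authors deposited these counts after alignment with Cell Ranger (7.1.0 in the matrix headers, 6.1.1 in the submitters' processing notes) to the ASM229v1 genome with Ensembl release 110, gene ends extended by up to 5 kb and intronic reads included. The authors also deposited cell labels from Leiden clusters and, as a fraction from 0 to 1, each nucleus's Scrublet doublet score, of which only the doublet call was used here. No column belonged to another sample (0 left unused).

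The labelled nuclei were kept as the authors filtered them, 798 Scrublet doublets included, and nuclei without a label were used only in the closing section. Counts were summed per animal and subclass over both libraries of an animal, which come from 1 suspension, and compared by the quasi-likelihood F-test of edgeR (4.0.16, R 4.3.3, TMM totals, filterByExpr, Benjamini-Hochberg adjustment over all genes tested, 0.05). The 8 glutamatergic subclasses were fitted together (16 sums) and the 3 classes together (6 sums). The test was checked on simulated data with 200 changed genes. Sums of the same animal come from the same individual. Over 6181 genes with at least 20 CPM, the animal differences of pairs of subclasses correlated at 0.0934 to 0.752 (median 0.509), and the fit with the animal as a block is given beside the printed tests whose call it changed.

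Shares of nuclei with a UMI were computed unthinned and with each nucleus thinned to 1000 or 3000 UMIs, with 95% Clopper-Pearson intervals and a floor of 3 nuclei for a count of 0. Co-detection is the share with both genes over the product of the single shares. Likeness used log2(CPM + 1) of genes with a symbol and at least 20 CPM in a subclass of both animals. The text names all 9 factors, the gene with the highest mean level per list and subclass, and up to 3 genes most like each factor, and says where another name was chosen after its values were seen. Members and lists were chosen with earlier results of these data known.

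Alternatives were DESeq2 size factors, DESeq2 1.42.0, no low-count filter, the animal as a block, no doublets, labels predicted across animals from genes outside the lists (15 neighbours, 30 components of 3000 variable genes, at most 500 training nuclei a label, the deposited label recovered for 96.1% and 96.8% of nuclei), equal nuclei per subclass, other thinning, and each animal alone. Calculations used Python 3.11.15, numpy 2.4.6, pandas 2.3.3, scipy 1.17.1 and scikit-learn 1.9.0. Positions and sequences are not given, because a reference of the files' build was not used here.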

Additional observations from a re-analysis of the deposited data

Results flagged for a closer look

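Some nuclei outside the labelled set carried these factors at levels above every labelled subclass of their class, in both animals and with at least 10 UMIs in each. Among GABAergic nuclei left without a label as ambiguous (302 in animal 1 and 428 in animal 2), the mean was 73.8 CPM for RORB (83.3 and 64.3), 139 CPM for ETV1 (148 and 130) and 58.1 CPM for TBR1 (81.8 and 34.4). In the same nuclei FOXP1 was at 258 CPM (100.3 and 416), TSHZ2 at 39.6 CPM (33.9 and 45.3) and FOXO1 at 68.2 CPM (23.1 and 113). FOXP1, FOXO1 and TBR1 differed most between the animals. The ETV1 level was 4.20 and 3.08 times that of Pvalb, the highest labelled GABAergic subclass for this gene.

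Among GABAergic nuclei set aside as doublets (356 and 248), RORB was at 167 CPM, TBR1 at 35.1 CPM, FOXP1 at 182 CPM and NEUROD6 at 7.25 CPM. Non-neuronal nuclei set aside as doublets (334 and 371) held FEZF2 at 8.17 CPM, TBR1 at 61.9 CPM and NEUROD6 at 15.4 CPM. What sets these levels was not tested.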

How the results depend on the processing

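All 9 factors passed across the 8 glutamatergic subclasses under every other fit but 1: with 53 nuclei per subclass and animal, FOXO1 and TSHZ2 were too sparse to test and NEUROD6 was not called, leaving 6 of 7. Calls over pairs, 131 in the text, ran from 100 of 196 with equal nuclei to 157 with the animal as a replicate block, where 21.1% of all gene and pair combinations passed. The block kept all 131 calls and left the 7 calls against GABAergic and the 8 against non-neuronal nuclei in number. With equal nuclei NEUROD6 in L5NP against IT_C turned to a log2 difference of -0.11 (adjusted p = 0.949), with no call on either side. Without thinning, co-detection was 1.46 for RORB and ETV1, 0.436 for CUX2 and FEZF2 and 2.33 for FEZF2 and ETV1. With equal weight for each subclass these were 1.43, 0.324 and 1.85, and FEZF2 and TBR1 fell to 0.984. CUX2 and FEZF2 gave 0.233 at 1000 UMIs and 0.276 without doublets. Each animal alone gave 0.928 to 0.989 for RORB and CUX2, 1.62 to 1.73 for RORB and ETV1, 0.279 to 0.289 for CUX2 and FEZF2, 1.154 to 1.206 for FEZF2 and TBR1, 2.49 to 2.86 for FEZF2 and ETV1, and 0.841 to 1.27 for FEZF2 and TSHZ2. The cause of these shifts was not tested. Of 288 levels under other settings, 282 stayed within 1.5 times the value in the text, and the exceptions were sparse: FEZF2 in IT_D and L6b, TSHZ2 in L5PT and L6b, and FOXO1 in L5NP and L6b. Leaving out an animal leaves no spread for the edgeR tests, so only values were recomputed. With 2 animals, 1 experimenter each, small differences between subclasses cannot be resolved, and in L6b (56 and 53 nuclei) and IT_D (58 in animal 1) a few UMIs set the level of FEZF2, NEUROD6, TSHZ2 and FOXO1.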
